A study of Mus musculus with 6 samples.

Results

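The mitosis and spindle genes are 42 mouse genes whose products enter, run or complete cell division, from the cyclin-dependent kinase and its cyclins to the motors, kinetochore proteins and condensins of the dividing cell. They were chosen by name. A gene was taken where a transcript cluster of the array, the set of probes that gives 1 value, carried its symbol and no other, and the cluster with the highest mean over the arrays was used. This found 41 of the 42 genes, among 19937 genes tested. The missing symbol was Sgol2a. RefSeq now lists it as Sgo2a, a protector of centromeric cohesin, which is given once below and not counted with the 41.

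Neurospheres, the floating colonies that neural precursor cells form in culture, were grown from hippocampal cells of adult male C57BL/6J mice aged 8 to 12 weeks. The sample titles of both groups call them small neurospheres. The culture medium of both groups held EGF and bFGF, with norepinephrine at 10 µM in the N group and potassium chloride at 15 mM in the K group, and primary neurospheres were collected on day 14. There were 3 arrays per group, labelled as biological replicates, and no untreated arrays, so that each value compares N with K. The sources used here do not say whether animals were pooled for a replicate. Of 8 neural precursor markers, 7 had a mean above the median of all clusters (6.34 on the log2 scale), among them Sox2 (9.67 to 10.4 over the 6 arrays) and Fabp7 (12.7 to 12.9), and Prom1 lay below it (5.70 to 6.23). The groups did not overlap in 3 of these markers, with log2 differences, N minus K, of -0.53 for Nes, 0.44 for Vim and 0.40 for Prom1, none of which passed an adjusted p of 0.05 in limma. Over all genes, 5.78% had every N array above every K array and 7.55% every N array below. K replicate 3 stood apart from the other arrays: its Pearson correlation with them across transcript clusters was 0.940 to 0.948, against 0.951 to 0.973 for the pairs that leave it out. Results for the members as a group and for several single members are also given without it. Values of the remaining members and of the other gene lists are given with it only. These arrays measured bulk RNA, in which fewer dividing cells and less RNA per dividing cell cannot be told apart.

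As background, mitotic genes form a shared program of the cell cycle: they are transcribed mainly in G2 phase and mitosis, are repressed in resting cells, and their RNA level in a tissue follows the share of cells that divide. The DREAM complex and its MuvB core bind a short promoter element, the cell cycle genes homology region (CHR), and the factor NF-Y binds CCAAT boxes upstream of it. Neural precursors kept with EGF and FGF divide in neurospheres, and they leave the cycle as they differentiate.

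The promoters of these genes are shown first, since the CHR is what many of the members share in sequence. RefSeq promoter windows (build GRCm38.p6, 250 bases before to 50 bases after an annotated start) were at hand for 34 of the 41 genes, in 36 windows. The letters TTTGAA of the CHR, searched on both strands, stood in 28 of the 36 windows (77.8%), against 17.9% of all 32851 windows of the same length. CCAAT, also searched on both strands, stood in 26 windows (72.2%), against 37.4% of all windows, and both motifs in 24 windows (66.7%), against 6.95%. By a criterion added after the matches were seen, TTTGAA lay within 50 bases of the start in 26 windows (72.2%) and in 4.94% of all windows. A match is a run of letters and not evidence that a factor binds there. Counted by gene, 26 members held TTTGAA, 24 held CCAAT and 6 held neither. The members not matched to a window were Foxm1, Ccna2, Aurkb, Cdca2, Kif20a, Tpx2 and Smc4.

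The following windows belong to the 4 genes with TTTGAA nearest the start among those described in full below, and include Kif20b and Ttk, the members with the most positive and the most negative difference between the groups. Each runs from 140 bases before the start to 30 bases from it on the gene's own strand, and capitals mark TTTGAA and CCAAT or their reverse complements, TTCAAA and ATTGG. The windows are chr19:34922218-34922387 (plus strand) for Kif20b, chr9:83834549-83834718 (plus strand) for Ttk, chr11:40733408-40733577 (minus strand) for Hmmr and chr4:124936888-124937057 (minus strand) for Cdca8.
Kif20b: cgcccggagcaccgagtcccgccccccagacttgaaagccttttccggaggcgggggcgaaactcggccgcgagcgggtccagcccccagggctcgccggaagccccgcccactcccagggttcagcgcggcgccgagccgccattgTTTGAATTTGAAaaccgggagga
Ttk: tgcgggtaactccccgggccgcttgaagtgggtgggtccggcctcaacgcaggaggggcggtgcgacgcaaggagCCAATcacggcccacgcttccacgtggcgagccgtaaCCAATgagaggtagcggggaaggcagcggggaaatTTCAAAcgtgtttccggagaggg
Hmmr: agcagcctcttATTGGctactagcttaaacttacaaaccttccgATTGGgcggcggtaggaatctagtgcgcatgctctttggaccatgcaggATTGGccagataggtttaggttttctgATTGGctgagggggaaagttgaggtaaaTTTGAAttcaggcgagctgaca
Cdca8: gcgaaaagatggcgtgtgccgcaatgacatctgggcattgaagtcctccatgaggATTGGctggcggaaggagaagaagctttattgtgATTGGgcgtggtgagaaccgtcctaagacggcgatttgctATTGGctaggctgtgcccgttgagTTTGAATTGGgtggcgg
Kif20b carried 2 adjoining copies of TTTGAA, the first beginning 8 bases into the transcript, and no CCAAT in the stretch shown. Ttk carried TTCAAA from base 8 and 2 CCAAT boxes upstream of it. In Hmmr, TTTGAA began at base 9 and followed 4 copies of ATTGG in the stretch shown. In Cdca8, TTTGAA began at base 14 and its last letter is also the first of an ATTGG.

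**Figure D1:**
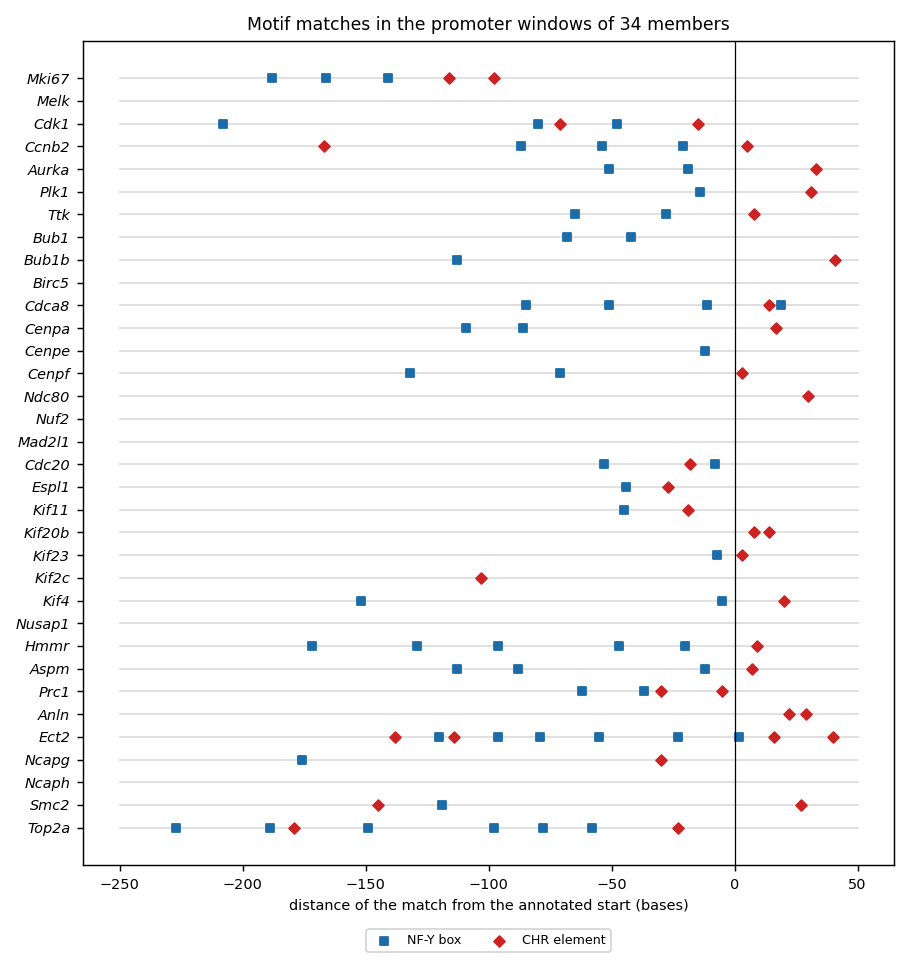
Matches to the CHR element (red diamonds) and the NF-Y box (blue squares) in the promoter windows of 34 members, 1 row per gene, against the distance of the match from the annotated start in bases (genes with more than 1 window share a row). CHR matches gather around the start and most NF-Y matches lie upstream of it, and 6 rows hold no match.

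The question of the comparison was whether mitotic gene expression differed between neurospheres grown with N and with K. As a group the 41 genes lay at about the same level in both. The log2 fold change (log2FC, the mean of the N arrays minus the mean of the K arrays) had a median of -0.003 over the members, with 20 genes above 0 and 21 below, and a range from -0.44 (Ttk) to 0.43 (Kif20b). Over all genes tested the median was -0.03 and 43.0% were above 0. Over the 11257 genes above the median cluster intensity (the brighter genes), where 40 of the 41 members lie, the median was 0.009 and 51.8% were above 0. By limma's moderated test with Benjamini-Hochberg adjustment over all genes, 0 of 41 members passed an adjusted p of 0.05, a threshold that 31 of 19937 genes passed (0.155%). The smallest adjusted p among the members was 0.550 (Hmmr). At an unadjusted P under 0.05, 1 member was higher with N (Hmmr, against 4.64% of all genes) and 1 was lower (Ttk, against 3.89%). Each count is 2.44% of the members and rests on 1 gene, too few to tell from the share of all genes. An ordinary linear model without moderation put 0 members and 7.03% of all genes under that limit. Without K replicate 3, Ttk and Cdca8 were lower at this limit and 0 members higher, where 7.16% of all genes passed it in either direction, with a smallest adjusted p of 0.293 in limma. A log2FC over 1 in size together with an unadjusted P under 0.05 was met by 0 members and by 98 genes in all (0.492%).

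The arrays bounded these differences. The 95% confidence interval of every one of the 41 members lay within a 2-fold difference in either direction, and that of 26 members within 1.5-fold. These limits hold for the reported fit. Intervals reached past 2-fold in an ordinary linear model (-1.06 to 1.18) and without N replicate 2 (-1.01 to 1.06), N replicate 3 (up to 1.05), K replicate 1 (up to 1.07) or K replicate 2 (up to 1.08). In the reported fit the lowest bound was -0.87 (Ttk) and the highest 0.90 (Kif20b). The narrowest interval belonged to Ccnb2 (0.26 to either side) and the widest to Plk1 (0.60 to either side). In 20 members (48.8%) the log2FC was under 0.1 in size, against 41.7% of all genes. The sign count turned on single arrays and on scaling. Above 0 were 10 of 41 members without K replicate 3 (47.0% of all genes), 26 without K replicate 2 (39.6%) and 27 without N replicate 3 (44.85%). After quantile normalization 14 were above 0 (47.4% of all genes), after cyclic loess 16 (50.4%) and with each array centred on its median 24 (49.0%). In each of these settings 0 members passed an adjusted p of 0.05.

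**Figure D2:**
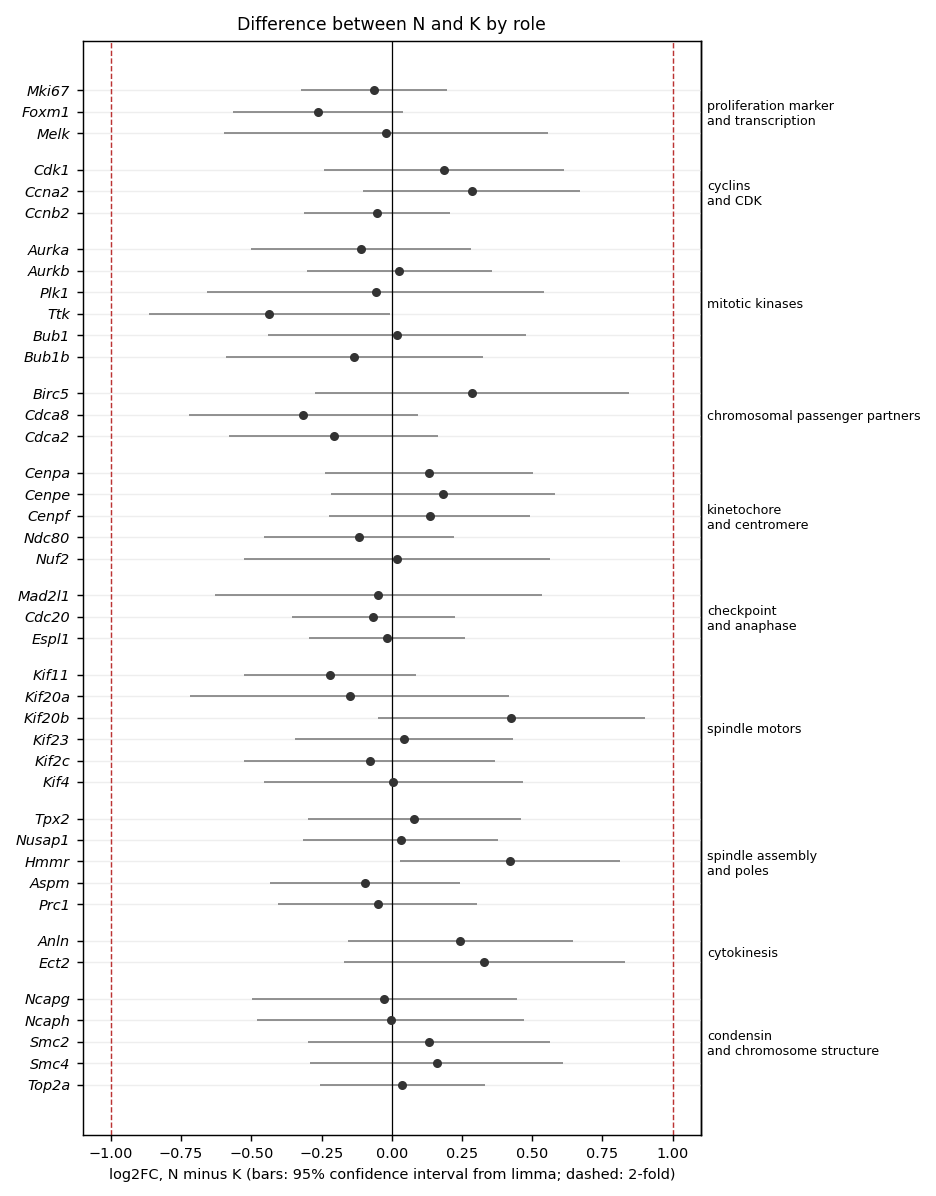
The log2FC of each of the 41 members, N minus K, with its 95% confidence interval from limma, grouped by role. In this fit the intervals all lie between the dashed lines at a 2-fold difference, and those of Ttk and Hmmr do not reach 0.

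**Figure D3:**
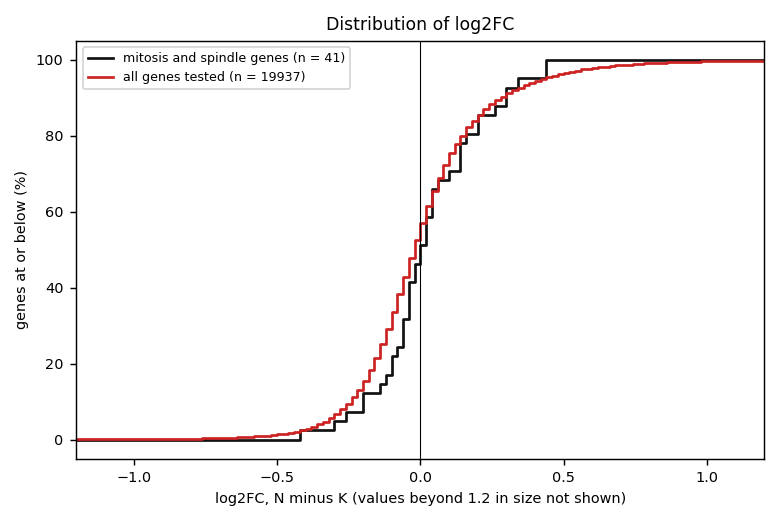
Cumulative share of genes (%) at or below a given log2FC, N minus K, for the 41 members (black) and for the 19937 genes tested (red). The members cross 0 at 51.2% and all genes at 57.0%.

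Among the proliferation marker and transcription genes, Mki67, which encodes the chromosome surface protein Ki-67 used to mark cycling cells, read 9.92, 9.85 and 9.92 on N replicates 1 to 3 and 9.91, 10.06 and 9.91 on K replicates 1 to 3. All arrays but K replicate 2, the highest, lay between 9.85 and 9.92, and the groups overlapped. Its interval was -0.32 to 0.20. Foxm1, a transcription factor that activates G2 and M phase genes, read 7.82, 7.73 and 7.45 with N and 7.93, 7.96 and 7.89 with K. Every N array was below every K array, as in 7.55% of all genes, and Foxm1 was the single member with this order. Its log2FC was -0.26 (standard error 0.13, limma adjusted p = 0.655), and -0.15 without N replicate 3. The kinase gene Melk had a log2FC of -0.02, with K replicate 3 the lowest array (6.66) and K replicate 2 the highest (7.57).

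The cyclin and CDK genes drive entry into mitosis. Cdk1, the mitotic cyclin-dependent kinase, read 8.52, 8.38 and 8.53 with N and 8.35, 8.63 and 7.88 with K. The groups overlapped, and only K replicate 3 stood far below the rest. Its log2FC was 0.19 (standard error 0.19, limma adjusted p = 0.838), -0.02 without K replicate 3 and 0.36 without K replicate 2. Ccna2, cyclin A2, which acts in S and G2 phase, read 10.74, 10.63 and 10.52 with N and 10.30, 10.68 and 10.06 with K. Here K replicates 1 and 3 lay below all N arrays and K replicate 2 among them. Its log2FC was 0.28 (standard error 0.17, limma adjusted p = 0.710), 0.14 without K replicate 3 and 0.45 without K replicate 2. Ccnb2, a B-type cyclin that partners Cdk1, had a log2FC of -0.05.

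Of the mitotic kinases, Ttk (Mps1), which starts the spindle checkpoint at kinetochores, read 7.92, 8.09 and 7.94 with N and 8.49, 8.76 and 8.01 with K. K replicates 1 and 2 were above all N arrays, while K replicate 3 lay among them. Ttk had the lowest log2FC of the members, -0.44 (standard error 0.19, limma adjusted p = 0.577), which was -0.64 without K replicate 3 and -0.27 without K replicate 2. Plk1, a kinase of mitotic entry, centrosomes and cytokinesis, read 8.51, 8.06 and 8.13 with N and 8.64, 8.58 and 7.65 with K. The 3 N arrays lay between K replicate 3 and the other K arrays, the log2FC was -0.06 (standard error 0.26, limma adjusted p = 0.972), and leaving out 1 array moved it between -0.38 (without K replicate 3) and 0.12 (without K replicate 1). Aurkb, the kinase of the chromosomal passenger complex, read 7.93, 7.72 and 7.75 with N and 7.70, 8.02 and 7.61 with K. Its groups overlapped, and the log2FC of 0.03 (standard error 0.14, limma adjusted p = 0.975) changed sign after quantile normalization and without N replicate 1, K replicate 1 or K replicate 3. Aurka, which acts at spindle poles, and the checkpoint kinase genes Bub1 and Bub1b had values of -0.11, 0.02 and -0.13.

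Birc5 and Cdca8 encode partners of Aurkb in the chromosomal passenger complex. With Cdca2, which was grouped with them by role, they gave values of both signs. Birc5, survivin, read 8.86, 8.46 and 8.21 with N and 8.41, 8.55 and 7.71 with K. Only N replicate 1 was above all K arrays and only K replicate 3 below all N arrays. Its log2FC was 0.29 (standard error 0.24, limma adjusted p = 0.811), and it was 0.03 without K replicate 3, 0.11 without N replicate 1, 0.44 without N replicate 3 and 0.45 without K replicate 2. Cdca8, borealin, which with survivin targets the complex to centromeres, read 7.55, 7.93 and 7.36 with N and 8.03, 8.08 and 7.69 with K. K replicates 1 and 2 were above all N arrays, and the log2FC was -0.32 (standard error 0.18, limma adjusted p = 0.689), -0.19 without N replicate 3 and -0.47 without N replicate 2. Cdca2, Repo-Man, which brings a phosphatase to chromosomes in anaphase, read 7.75, 7.45 and 7.17 with N and 7.77, 7.67 and 7.55 with K. N replicate 1 lay within the K range and the other N arrays below it, for a log2FC of -0.21 (standard error 0.16, limma adjusted p = 0.796), which was -0.06 without N replicate 3 and -0.35 without N replicate 1.

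The kinetochore and centromere genes, whose products attach chromosomes to the spindle, had 4 of 5 values above 0. Over all genes 43.0% were above 0, and over the brighter genes 51.8%. K replicate 3 was the lowest K array in these genes but for Cenpa, and the count without it is not given. Cenpa, the centromeric histone, had a log2FC of 0.13, the kinetochore motor Cenpe 0.18 and the kinetochore protein Cenpf 0.14. Ndc80 and Nuf2 encode partners in 1 microtubule-binding complex and had values of -0.12 and 0.02. Sgo2a, which was not counted, read 8.68, 8.64 and 8.30 with N and 8.31, 8.67 and 8.03 with K, with overlapping groups and a log2FC of 0.20 (standard error 0.19, limma adjusted p = 0.826). In the checkpoint and anaphase genes all values were small: -0.05 for Mad2l1, which holds back anaphase, -0.07 for Cdc20, the activator of the anaphase-promoting complex, and -0.02 for the separase gene Espl1, whose mean value over the arrays (6.32) was the lowest of the members.

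Among the spindle motors, Kif20b, a kinesin of cytokinesis that is needed for normal growth of the mouse cortex, read 8.87, 8.48 and 8.54 with N and 8.39, 8.48 and 7.74 with K. N replicate 2 and K replicate 2 were level, N replicates 1 and 3 lay above all K arrays, and K replicate 3 was far below. Kif20b had the highest log2FC of the members, 0.43 (standard error 0.21, limma adjusted p = 0.637), and it was 0.20 without K replicate 3. Kif11 (Eg5), the motor that pushes spindle poles apart, read 8.39, 8.36 and 8.59 with N and 8.70, 8.80 and 8.49 with K. N replicate 3 lay within the K range and the other N arrays below it, for a log2FC of -0.22 (standard error 0.13, limma adjusted p = 0.718). The values of the other motors were -0.15 for Kif20a and 0.04 for Kif23, kinesins of the central spindle, -0.08 for Kif2c, which depolymerises microtubules, and 0.005 for the chromosome-bound Kif4.

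Hmmr, a spindle-associated protein also known as a hyaluronan receptor, was the single member with all N arrays above all K arrays, as in 5.78% of all genes. It read 8.43, 8.40 and 8.48 with N and 7.93, 8.39 and 7.73 with K. The N arrays lay close together, K replicate 2 was just below them, and K replicates 1 and 3 were clearly lower. Its log2FC was 0.42 (standard error 0.17, 95% interval 0.03 to 0.81, limma adjusted p = 0.550), 0.28 without K replicate 3 and 0.61 without K replicate 2. The other genes of spindle assembly and poles were near 0: 0.08 for Tpx2, which starts microtubule growth around chromosomes, 0.03 for Nusap1, -0.05 for Prc1, which bundles central spindle microtubules, and -0.09 for Aspm, a pole protein whose loss causes microcephaly in humans.

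The 2 cytokinesis genes both had values above 0. Ect2, which activates RhoA at the division site, read 8.48, 8.67 and 7.76 with N and 8.01, 8.01 and 7.90 with K. N replicates 1 and 2 were above all K arrays and N replicate 3 below them. Its log2FC was 0.33 (standard error 0.22, limma adjusted p = 0.753), and it was 0.60 without N replicate 3 and 0.15 without N replicate 2. The contractile ring scaffold gene Anln had a log2FC of 0.24, with K replicate 3 (7.91) the lowest array.

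Top2a, the topoisomerase that untangles sister chromosomes, had the highest mean value of the members (10.57). It read 10.66, 10.70 and 10.42 with N and 10.59, 10.63 and 10.45 with K, so that N replicate 3 and K replicate 3 were the lowest of their groups. Its log2FC was 0.04 (standard error 0.13, limma adjusted p = 0.960) and changed sign after quantile normalization, after cyclic loess and without N replicate 2 or K replicate 3. A second, dim Top2a cluster (mean 3.23) had a log2FC of -0.61. The condensin genes, whose products compact chromosomes, had values of -0.03 for Ncapg, -0.003 for Ncaph, 0.13 for Smc2 and 0.16 for Smc4.

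**Figure D4:**
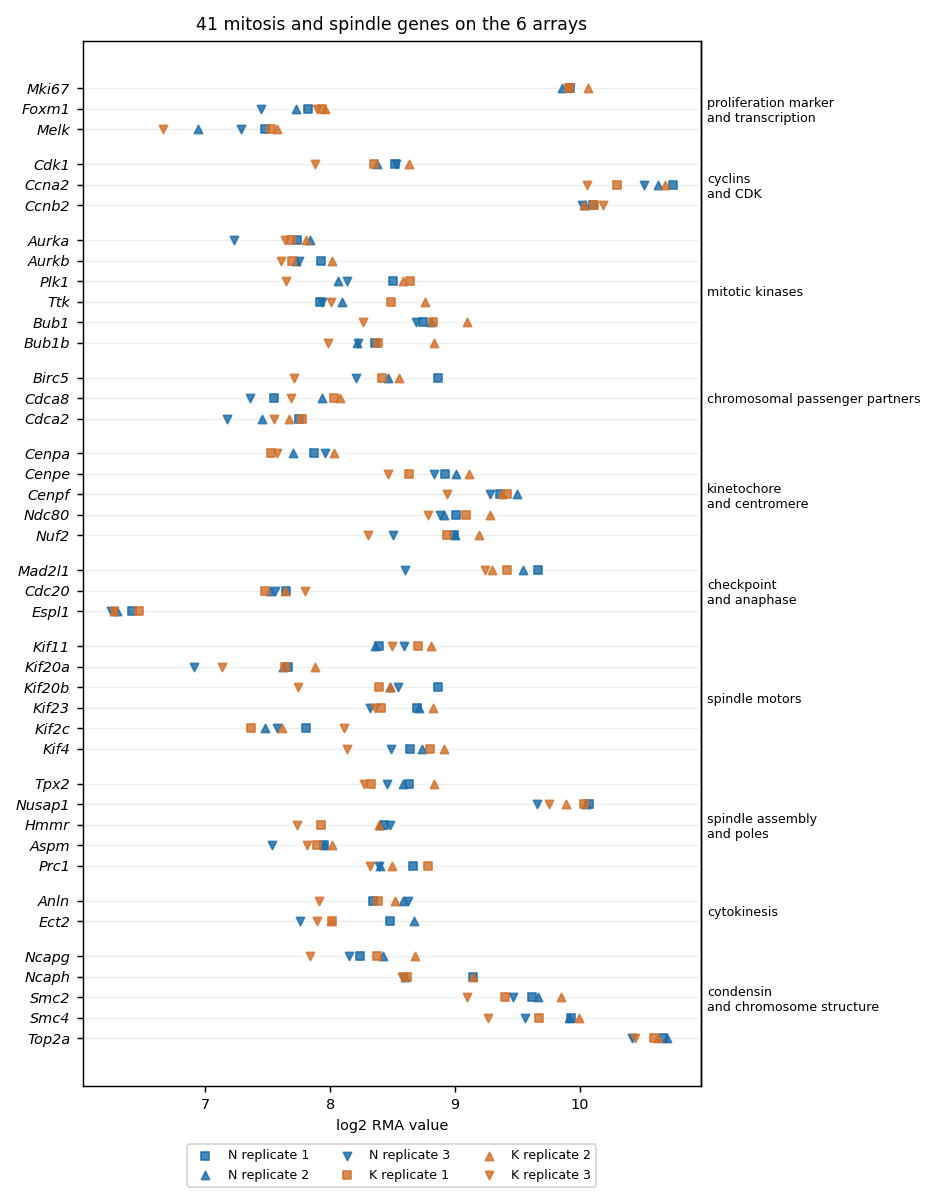
Log2 RMA values of the 41 members on the 6 arrays, N in blue and K in orange, with squares, upward triangles and downward triangles for replicates 1, 2 and 3. K replicate 2 is the highest K array in 30 rows and K replicate 3 the lowest in 36.

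The members differed among the K arrays, most of all between replicates 2 and 3. K replicate 2 was above K replicate 3 in 38 of 41 members (all but Ccnb2, Cdc20 and Kif2c), against 38.7% of all genes and 52.4% of the 11257 genes above the median cluster intensity, where 40 of the 41 members lie. The median difference between these arrays was 0.49 on the log2 scale, where it was -0.09 over all genes and 0.02 over the brighter ones. K replicate 2 was the highest and K replicate 3 the lowest of the K arrays in 28 members (68.3%), an order found in 15.5% of all genes and 23.6% of the brighter ones. The gap between these arrays sets 2 single arrays side by side, while the log2FC sets means of 3 arrays, which vary less. This gap was larger than the log2FC in size in 37 members, against 70.4% of all genes. The exceptions were Foxm1, Cdca2, Espl1 and Ect2. The largest gaps were those of Plk1 (0.94), Melk (0.92), Nuf2 (0.89) and Bub1b (0.84). The median standard deviation within a group was 0.15 for N and 0.31 for K, against 0.14 and 0.18 over all genes, and it was larger within K than within N in 30 members (73.2%, against 63.3% of all genes). As these patterns were seen in the values, they are given as a description, without a test.

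Per array, the deviation of each member from its own mean over the 6 arrays put this in one number. Its median over the members was 0.10, 0.07 and -0.11 on N replicates 1 to 3 and 0.03, 0.23 and -0.21 on K replicates 1 to 3. K replicates 2 and 3 thus lay at opposite ends, with all N arrays between them. Over all genes this median lay between -0.04 and 0.05 on every array, at -0.04 on K replicate 2 and 0.05 on K replicate 3. Over the genes above the median cluster intensity it was 0.01 and -0.01 on these arrays. The members kept the difference after quantile normalization (0.20 and -0.16 on K replicates 2 and 3), cyclic loess (0.20 and -0.17) and centring (0.27 and -0.26). N replicate 3 was the lowest N array in 27 members (65.9%, against 38.4% of all genes) and N replicate 1 the highest in 22 (53.7%, against 34.9% of all genes).

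**Figure D5:**
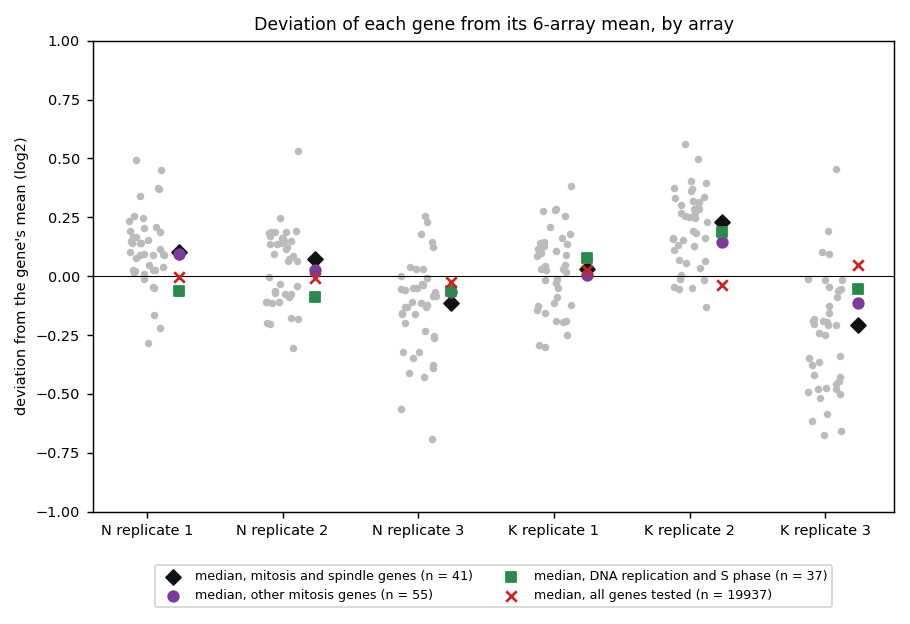
Deviation of each of the 41 members from its mean over the 6 arrays (log2, grey points) by array, with medians for the members, for 55 other mitosis genes, for 37 S phase genes and for all 19937 genes tested. K replicate 2 has the highest member median (0.23) and K replicate 3 the lowest (-0.21), with all N arrays between.

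Markers of other cells were also compared between K replicates 2 and 3, where dim genes in general read higher on K replicate 3. All 6 microglia and macrophage, all 6 neuron and neuroblast and all 5 endothelial markers were higher on K replicate 3 than on K replicate 2, as were 5 of 6 pericyte and fibroblast markers, 3 of 4 choroid plexus markers, 3 of 6 astrocyte markers and 3 of 6 oligodendrocyte lineage markers. The background share was 61.2% of all genes and 79.0% of the genes at or below the median cluster intensity, among which lay 5 of the microglia and macrophage markers, 4 of the neuron and neuroblast markers and all 5 endothelial markers. Of the 8 neural precursor markers 1, Hes5, was higher on K replicate 3. Between N and K, all 6 astrocyte markers had a log2FC above 0 (median 0.71), against 43.0% of all genes and 51.8% of the brighter genes. Their median deviation was 0.18 to 0.49 on the N arrays and -0.43 to -0.33 on the K arrays. In 5 of them all N arrays were above all K arrays, as in 5.78% of all genes. Gjb6, a dim gene (mean 4.98), had overlapping groups and a log2FC of 0.008. The part of these cells in the values of the mitotic genes was not tested.

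A longer list of other mitosis genes gave the same comparison outside the members. Of 59 genes 55 were measured, with a median log2FC of 0.03. In 31 the value was above 0 (56.4%, against 43.0% of all genes and 51.8% of the brighter genes). Of these 55 genes, 0 passed an adjusted p of 0.05 in limma. At an unadjusted P under 0.05, 4 were higher with N, against 4.64% of all genes. They were the kinesin gene Kif18a (log2FC 0.56, standard error 0.16), the securin gene Pttg1 (0.39, 0.14), the kinetochore gene Zwint (0.58, 0.23) and the centromere gene Cenpw (0.63, 0.20). Lower with N were 3, against 3.89% of all genes: the kinesin gene Kif15 (-0.37, 0.12), the passenger complex gene Incenp (-0.28, 0.12) and Oip5 (-0.49, 0.19), which helps to load the centromeric histone. Kif18a read 9.10, 9.12 and 9.24 with N and 8.63, 8.88 and 8.29 with K, and Kif15 read 7.65, 7.66 and 7.84 with N and 8.00, 8.13 and 8.14 with K. Both had groups that did not overlap, in opposite directions (limma adjusted p = 0.355 and 0.406), orders found in 5.78% and 7.55% of all genes. In this list, too, K replicate 2 was above K replicate 3 in 38 of 55 genes (69.1%, against 52.4% of the brighter genes), and the median deviation was 0.14 and -0.12 on these arrays. Cohesin genes, which hold sister chromatids together until anaphase, showed the order K replicate 2 above K replicate 3 in 9 of 10 genes, with a median log2FC of 0.06.

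DNA replication genes act a step earlier, in S phase. Of 37 measured, 24 had a log2FC below 0 and 13 above it (35.1%, against 43.0% of all genes and 51.8% of the brighter genes). The median was -0.14, against -0.003 for the mitotic members and -0.03 over all genes, and 0 passed an adjusted p of 0.05 in limma. At an unadjusted P under 0.05, 4 were lower with N, against 3.89% of all genes: Tyms, which makes thymidylate, and the replicative helicase genes Mcm4, Mcm5 and Mcm6. The 1 higher gene (against 4.64% of all genes), the GINS subunit Gins4 (log2FC 0.77, standard error 0.30), overlapped between the groups. The difference between the medians of the lists was not tested. K replicate 2 was above K replicate 3 in 22 of these 37 genes (59.5%) and in 52.4% of the brighter genes, against 38 of 41 members. That difference between lists was not tested.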

How the data were processed

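The authors hybridised cDNA of the neurospheres to Affymetrix Mouse Gene 1.0 ST arrays and summarised the scans in Partek Genomics Suite with RMA. The deposited values are log2 values, background-corrected and normalized between arrays. Versions and the array's genome build are not given in the sources used here. Of 34760 transcript clusters, 21640 carried exactly 1 symbol and were reduced to 19937 genes, with no filter on dim values. The difference N minus K was fitted per gene by lmFit and eBayes of limma 3.58.1 (R 4.3.3, 4 residual degrees of freedom), with Benjamini-Hochberg adjustment over all genes. P-values measure the spread between 3 arrays per group, which limits the precision, and an exact permutation test of 3 against 3 cannot go below 0.1. The fit was tested on simulated data. Members and lists were chosen with earlier results of these data known, and lists are described by counts and medians. Values on all arrays are given for members with an unadjusted P under 0.05, for the 5 largest and 5 smallest log2FC, and for Mki67, Top2a, Cdk1, Plk1, Aurkb and Foxm1. Of other lists, values are given for up to 4 genes with the smallest P and any that complete a count. Alternatives were the normalization, the filter on dim clusters, the choice of cluster, the variance model, the features tested, a replicate block and each array left out in turn. The comparison with brighter genes was chosen after seeing the data. Motifs were searched in Python 3.11.15, and figures drawn with matplotlib 3.10.9.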

Additional observations from a re-analysis of the deposited data

How the results depend on the processing

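The count of members at an adjusted p under 0.05 was 0 under every alternative run. The median log2FC of the members, -0.003, was -0.05 after quantile normalization, -0.04 after cyclic loess, 0.02 with arrays centred on the median and between -0.06 and 0.14 with 1 array left out, and it was 0.001 with Sgo2a counted, an alternative chosen after seeing the data. Members above 0 numbered 20 in the reported fit. With 1 array left out they numbered between 10 (without K replicate 3, 47.0% of all genes) and 27 (without N replicate 3, 44.85%). Members at an unadjusted P under 0.05 numbered 2 in the reported fit, where 8.54% of all genes passed this limit. The count was 4 after quantile normalization (8.74% of all genes). It was 1 with centred arrays (8.34%), with bright clusters only (10.1%) and with a trended, robust variance (8.42%). In the ordinary linear model (7.03%) and with all transcript clusters (6.14%) it was 0. With 1 array left out it was 0 to 4, where 6.27% to 14.6% of all genes passed. Without K replicate 2 the 4 were Ccna2, Cenpe, Kif20b and Hmmr, where 14.6% of all genes passed this limit, with a smallest adjusted p of 0.132 in limma. Genes at an adjusted p under 0.05 over all genes, 31 in the reported fit, numbered 12 after quantile normalization, 12 after cyclic loess, 3 with centred arrays, 1 in the ordinary linear model, 0 with all transcript clusters and 0 to 21 with 1 array left out. The cause of these changes was not tested.

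The sign turned for Top2a (log2FC -0.0500 after quantile normalization, -0.0386 after cyclic loess, -0.29 with the mean of all clusters, and -0.0172 to 0.12 with 1 array left out), for Aurkb (-0.00371 after quantile normalization, and -0.0571 to 0.15 with 1 array left out), for Cdk1 (-0.0173 to 0.36 with 1 array left out) and for Plk1 (-0.38 to 0.12 with 1 array left out). The other 11 members described with values on all arrays kept their sign in every setting.

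Replicate numbers were shared by the groups as labels: the deviations of same-numbered arrays correlated at 0.04, 0.04 and 0.12 across genes. Those of N and K arrays with other numbers correlated at -0.14 to 0.11. These values do not settle whether the arrays were paired, and the reported fit did not pair them. With the replicate number as a block, 41 genes passed an adjusted p of 0.05 and 0 of them were members. In that fit 3 members had an unadjusted P under 0.05 (Ttk, Kif20b and Hmmr), as did 9.4% of all genes. The smallest adjusted p of the members was 0.436 in limma, and their median log2FC was -0.003. Other background corrections and slide or scan batches could not be run on the summarised values.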

Other observations

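Gene groups that border on mitosis were described in the same way. The list for the anaphase-promoting complex, the ubiquitin ligase that ends mitosis, held 15 genes, among them Fzr1, Ube2s and Fbxo5, which are not subunits. Of the 15 genes, 0 passed an adjusted p of 0.05 in limma and the median log2FC was 0.03. The subunit gene Anapc2 read 6.78, 7.07 and 6.56 with N and 7.43, 7.45 and 7.34 with K (log2FC -0.60, standard error 0.15, limma adjusted p = 0.267). Its groups did not overlap, an order found in 7.55% of all genes. It was the single gene of this list with an unadjusted P under 0.05, where 3.89% of all genes were lower. Among 11 tubulin and general microtubule genes, 9 had a log2FC above 0 (81.8%, against 43.0% of all genes and 51.8% of the brighter genes). The median of the 11 was 0.16 and 0 passed an adjusted p of 0.05. Tuba4a, an alpha-tubulin gene, read 8.57, 8.83 and 8.90 with N and 7.72, 7.90 and 8.14 with K (log2FC 0.85, standard error 0.15, limma adjusted p = 0.116). Tubb3 and Tbca were also higher at an unadjusted P under 0.05, a limit passed in this direction by 4.64% of all genes.

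Of 14 D-type cyclin and inhibitor genes, which set entry into the cell cycle, 2 were higher with N at an unadjusted P under 0.05 (against 4.64% of all genes) and 0 passed after adjustment. Ccnd2, cyclin D2, read 11.29, 11.09 and 11.28 with N and 10.60, 10.54 and 10.46 with K, and the inhibitor gene Cdkn2b read 8.39, 8.28 and 8.32 with N and 8.05, 7.39 and 7.48 with K. In both genes all N arrays were above all K arrays (limma adjusted p = 0.103 and 0.291), as in 5.78% of all genes.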
